A study of Gallus gallus with 20 samples.

Results

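The genes described here are members of the PAX-SIX-EYA-DACH network of muscle precursors, followed in cultured chicken muscle satellite cells (MuSCs) from breast muscle with and without wooden breast (WB) myopathy. They were chosen by symbol, as SIX2, SIX4, EYA1, EYA2, EYA3, EYA4, DACH1 and DACH2, and the row with the most counts was taken for each. Of these 8 symbols, 7 had a row among the 30108 rows of the deposited table, each of them a single row, and all 7 passed the filter on low counts that kept 14524 genes. SIX2 was not analysed here.

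SIX-family proteins are homeodomain transcription factors that bind DNA at sites upstream of muscle genes. EYA proteins do not bind DNA themselves; they are carried to those sites by their SIX-family partners, where they act as coactivators, and they also hold a tyrosine phosphatase domain. DACH proteins are related to the SKI family, bind chromatin with corepressors and oppose or modulate the output of SIX-EYA complexes. In vertebrate embryos and in mouse satellite cells, the network works alongside PAX3 and PAX7 and upstream of the myogenic regulatory factors MYF5, MYOD1 and MYOG.

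WB is a myopathy of fast-growing broilers in which the pectoralis major becomes hard, fibrotic and poor in intact fibers. MuSCs came from the pectoralis major of Ross-308 broilers aged 36 days, male by the series' design text, and were expanded in culture before RNA was sequenced. By the study's methods a MuSC isolate could come from the study's own birds or from breast fillets of an abattoir, whose sex is not given, and the labels do not say which. The affected group held 9 samples from WB muscle and the non-affected group 11 samples from muscle without WB, and the labels name no treatment of either. The affected samples are A4, A16, A72, A73, A76, A79, A85, A16B and A76B. The non-affected samples are NA61, NA62, NA64 to NA70, NA61B and NA64B. The study's methods give other group sizes and leave out non-affected samples that they do not name, so all labelled samples were used here. The labels number each sample as its own bird, A76 and A76B for example. Samples whose names differ only in the suffix B are said here to share a bird number. The labels do not say whether a suffix B sample is a second culture of the same bird. The p-values therefore measure the spread between these samples, part of which may be technical.

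Library totals ran between 15632134 and 26541152 estimated counts in the affected group and between 15425103 and 28113814 in the non-affected group. Levels are given as CPM, the counts of a gene scaled to a common library size with TMM factors, and a log2 fold change is that of affected over non-affected samples from the edgeR quasi-likelihood test, with Benjamini-Hochberg adjustment over all tested genes. All 6 myoblast markers (PAX7, MYF5, MYOD1, DES, CDH15 and CHRNA1) were detected in every sample, but their summed level spanned 53.9 to 207 CPM in affected samples and 67.8 to 1825 CPM in non-affected samples, and 5 of the 6 were lower in the affected group. Macrophage markers moved the other way: of 7 with a row, 4 were tested and 2 were higher (CSF1R and TREM2), with a summed level of 14.6 to 102 CPM in affected samples and 10.8 to 53.1 CPM in non-affected samples. MARCO and C1QA, both typical of macrophages, were at 0 in some samples of each group. Of 7 fibroblast markers 6 were tested and 1 was lower (COL3A1), and their summed level was 4305 to 16616 CPM in affected samples and 5937 to 19850 CPM in non-affected samples. Over all tested genes 3.33% were higher and 2.91% lower at an edgeR adjusted p of 0.05 or less. In bulk RNA, fewer cells of a type and less RNA per cell cannot be told apart.

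A transcript of the female-specific W chromosome, HINTW, had at most 9 counts in 8 affected samples and 0 counts in the non-affected samples NA61 and NA61B, whereas the affected sample A76 had 876 counts and the other 9 non-affected samples had 1316 to 5701 counts. All birds are male by the series' design text, and these counts go against it. A76 and A76B, whose names differ only in the suffix, fall on different sides, with 876 and 0 counts. Whether they come from 1 bird was not tested. HINTW and group therefore overlapped almost completely, and a difference between the groups cannot be told apart from a difference in HINTW beyond what the 2 exceptions on the non-affected side and the 1 on the affected side allow.

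None of the 7 members passed the test between the groups. By the edgeR test at an adjusted p of 0.05 or less, 0 of 7 were higher in affected MuSCs, where 3.33% of all tested genes were, and 0 of 7 were lower, where 2.91% of all tested genes were. At an unadjusted p under 0.05 the count was 1 of 7, EYA2, where 24.1% of all tested genes were, and DESeq2 and limma-voom each called 0 of the 7. The median log2 fold change of the 7 members was −0.12, beside −0.01 for all tested genes, and 5 of the 7 estimates were negative. For so few genes these counts are near the background.

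**Figure D1:**
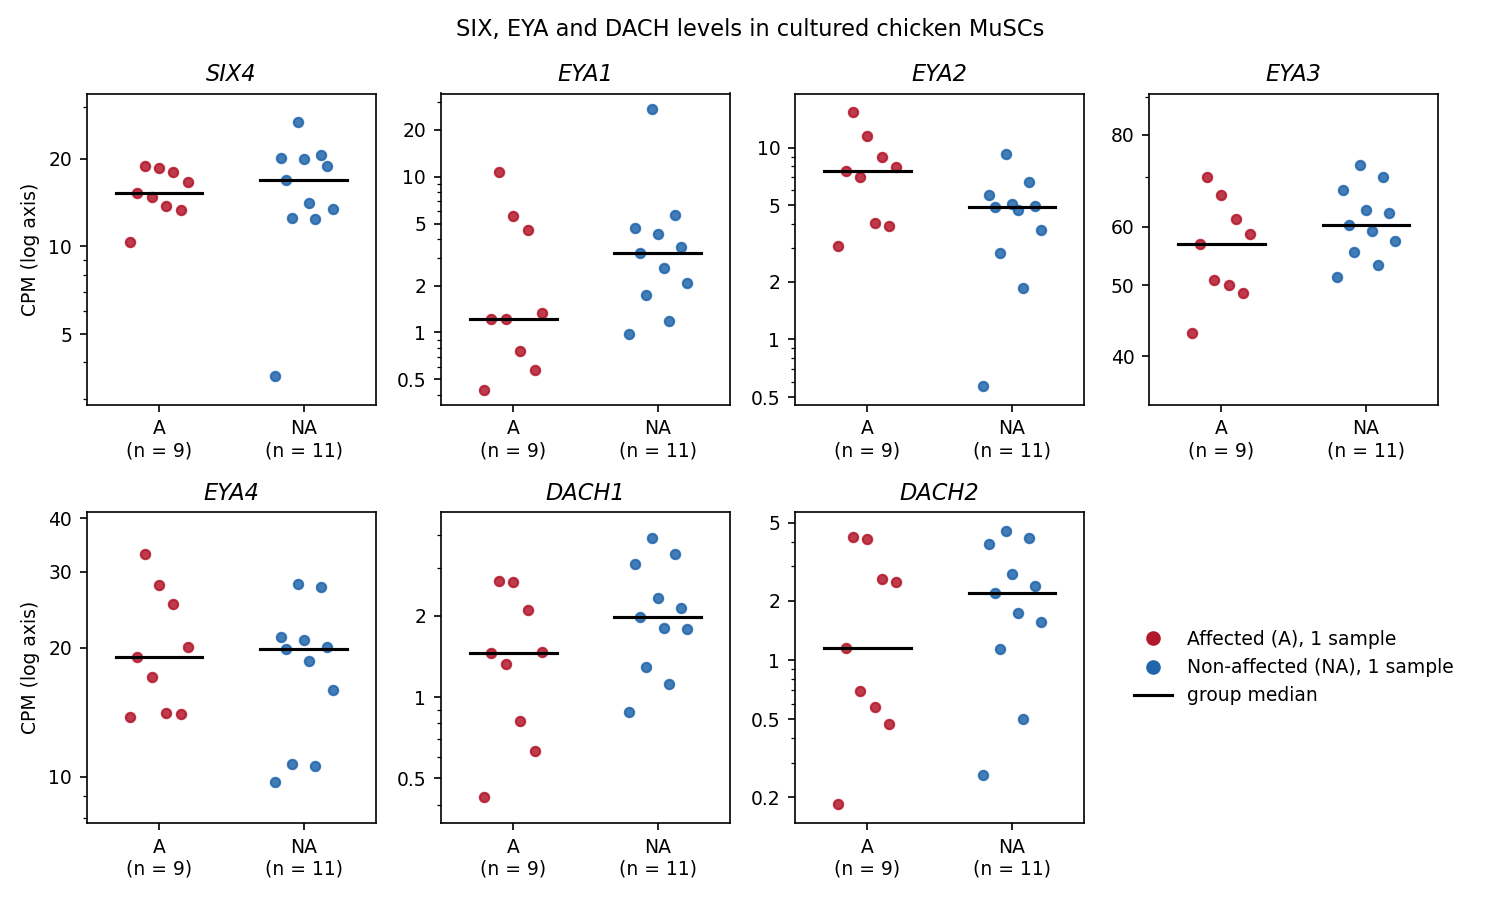
Level of each member in every sample, in CPM on a log axis, with affected samples (A, n = 9) left of non-affected samples (NA, n = 11) and a bar at the median. The groups overlap for all 7 members; EYA3 is the tightest and EYA1 the widest, reaching 27.3 CPM in the non-affected sample NA70.

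SIX4, the only member of its family with a row, is a homeodomain factor that takes part in embryonic myogenesis of the mouse. SIX4 (ENSGALG00010017918) had 10.4 CPM in the lowest, 15.2 in the median and 18.9 in the highest affected sample, against 3.58, 16.9 and 26.8 CPM in the lowest, median and highest non-affected sample. The affected values lay wholly within the non-affected range. The group means were 15.5 ± 2.80 CPM in affected and 16.3 ± 6.06 CPM in non-affected MuSCs (SD, n = 9 and 11), a log2 fold change of −0.07 (SE 0.23, edgeR adjusted p = 0.872) whose 95% interval ran from −0.51 to 0.37. Both extremes of the non-affected group were single libraries, NA64B at 3.58 CPM, or 57 counts, and NA70 at 26.8 CPM. Its companion of the same bird number, NA64, had 14.1 CPM of SIX4. Without NA64B the log2 fold change was −0.18, and without NA70 it was 0.02. The RefSeq annotation of GRCg7b holds no gene under the symbol SIX4; it names a SIX5 on chromosome 5 between 53885483 and 53896819, and whether that is the same gene was not tested.

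EYA1 is the family member most closely tied in the mouse to the early specification of limb and trunk muscle. EYA1 (ENSGALG00010003210; chromosome 2, 116637896 to 116727240, GRCg7b) spread over a 63.4-fold range, the widest among the members. In affected MuSCs it had 0.430 CPM in A76B, 0.578 in A76, 0.761 in A4, 1.21 in A79, 1.23 in A16, 1.34 in A73, 4.53 in A72, 5.60 in A16B and 10.8 in A85. The non-affected samples ran from 0.985 CPM in NA65 through a median of 3.22 CPM to 27.3 CPM in NA70. Thus 3 affected samples (A76B, A76 and A4) fell below every non-affected sample, while A72, A16B and A85 were above the non-affected median. The means were 2.94 ± 3.46 CPM in affected and 5.20 ± 7.47 CPM in non-affected MuSCs (SD, n = 9 and 11), and the log2 fold change was −0.82 (SE 0.65, edgeR adjusted p = 0.448; 95% interval −2.09 to 0.46). This estimate rested on single libraries: without NA70 it was −0.02, and without A85 it was −1.40.

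EYA2, a coactivator present in early muscle cells of chick and mouse embryos, had the largest positive estimate of the 7. EYA2 (ENSGALG00010023863; chromosome 20, 6011302 to 6104491) had 15.4 CPM in A79, 11.6 in A16B, 8.96 in A16, 7.95 in A72, 7.61 in A4, 7.07 in A76B, 4.02 in A73, 3.89 in A76 and 3.08 in A85 among the affected samples. Non-affected samples had 0.570 CPM in NA65 as the lowest, 4.92 CPM in the median and 9.25 CPM in NA61B as the highest. In the affected group 6 of 9 samples were above the non-affected median and 2, A79 and A16B, were above every non-affected sample. The means were 7.72 ± 3.95 CPM in affected and 4.57 ± 2.35 CPM in non-affected MuSCs (SD, n = 9 and 11), a log2 fold change of 0.76 (SE 0.36, 95% interval 0.06 to 1.46) with an edgeR p of 0.0466 before and 0.200 after adjustment. It did not pass the threshold over all genes, and an unadjusted p of that size is common in this comparison.

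The highest EYA2 samples were also high in the sum of macrophage markers, though not every sample followed. This sum was 102 CPM in A79 and 70.5 CPM in A16B, the 2 highest values of the affected group and of all 20 samples. It was 53.1 CPM in NA61B, the highest value of the non-affected group, and NA61B was also its highest EYA2 sample. By contrast, A4 had 7.61 CPM of EYA2 with a marker sum of 14.6 CPM. Without A79 and A76B, chosen from earlier results for those markers, the log2 fold change of EYA2 was 0.55 (edgeR adjusted p = 0.425). A79 is also the highest EYA2 sample of all 20, so its removal lowers the estimate whatever its marker sum. Without A79 alone the log2 fold change was 0.57, and without A76B alone it was 0.78. The part of macrophage markers in this difference was not tested. On average the largest part of the sums was 1 marker, CTSS, with means of 36.4 CPM in affected and 14.8 CPM in non-affected samples. No non-affected sample was above 0.959 CPM of CSF1R or 1.498 CPM of TREM2. The sum of NA61B therefore does not show that either was high there. Along HINTW the EYA2 estimate was smaller than over all samples. NA61 and NA61B, the non-affected samples without HINTW and of 1 bird number, had 5.70 and 9.25 CPM of EYA2. The log2 fold change of the 8 affected samples with at most 100 counts of HINTW over these 2 was 0.13 (SE 0.49). With HINTW as an additive term, EYA2 had a log2 fold change of 0.10 (SE 0.51).

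EYA3, a broadly expressed member of the family, was the steadiest of the 7. EYA3 (ENSGALG00010012808; chromosome 23, 1844894 to 1889437) had 43.0, 56.9 and 70.0 CPM in the lowest, median and highest affected sample, against 51.3, 60.3 and 72.8 CPM in the non-affected samples. A16B, A4, A72 and A16 fell below every non-affected sample, and A73 and A76 were near the top of both groups. The means were 56.2 ± 8.85 CPM in affected and 61.2 ± 6.89 CPM in non-affected MuSCs (SD, n = 9 and 11), and the log2 fold change was −0.12 (SE 0.09, edgeR adjusted p = 0.422; 95% interval −0.30 to 0.06). Its coefficient of variation was 15.7% in the affected and 11.3% in the non-affected group, below the median of all tested genes of 25.1% and 28.9%. The interval is the narrowest of the members.

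EYA4, best known for its roles in hearing and the heart in mammals and also present in muscle, had its highest affected values in both samples of 1 bird number. EYA4 (ENSGALG00010006239; chromosome 3, 56071366 to 56228125) had 33.1 CPM in A76 and 28.0 CPM in A76B, the highest of a group whose lowest was 13.8 CPM and whose median was 19.0 CPM. The non-affected samples had 9.75 CPM as the lowest, 19.8 CPM as the median and 28.1 CPM as the highest. The means were 20.5 ± 6.89 CPM in affected and 18.5 ± 6.31 CPM in non-affected MuSCs (SD, n = 9 and 11), with a log2 fold change of 0.15 (SE 0.21, edgeR adjusted p = 0.688; 95% interval −0.27 to 0.57). With the suffix B samples left out it was −0.05.

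DACH1, a corepressor that in Drosophila and vertebrates works in the same circuits as the other members, was scarce in these cells. DACH1 (ENSGALG00010000870; chromosome 1, 156610085 to 156979403) had 7 to 76 counts a sample, or 0.427, 1.46 and 2.69 CPM in the lowest, median and highest affected sample, against 0.879, 1.98 and 3.88 CPM in the non-affected samples. A73, A76 and A16 were the 3 lowest of all 20 samples. The means were 1.51 ± 0.833 CPM in affected and 2.15 ± 0.957 CPM in non-affected MuSCs (SD, n = 9 and 11), and the log2 fold change was −0.51 (SE 0.33, edgeR adjusted p = 0.344; 95% interval −1.15 to 0.13). Counting error alone gives a coefficient of variation of 16.6% at this depth, whereas the observed values were 55.1% in the affected and 44.4% in the non-affected group. With HINTW as an additive term the log2 fold change was −1.19 (SE 0.46, edgeR p = 0.0181 before and 0.743 after adjustment).

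DACH2, the paralog expressed in the dermomyotome of the chick embryo, was likewise scarce. DACH2 (ENSGALG00010018165; chromosome 4, 8233976 to 8498973) had 4.22 CPM in A16B, 4.12 in A85, 2.58 in A16, 2.50 in A72, 1.16 in A73, 0.697 in A4, 0.577 in A79, 0.473 in A76 and 0.184, from 3 counts, in A76B. The non-affected samples ran from 0.259 CPM in NA65 through a median of 2.20 CPM to 4.55 CPM in NA68. The 4 high affected samples lay among the higher non-affected samples and the 5 low ones below the non-affected median. The means were 1.83 ± 1.57 CPM in affected and 2.29 ± 1.45 CPM in non-affected MuSCs (SD, n = 9 and 11), and the log2 fold change was −0.31 (SE 0.52, edgeR adjusted p = 0.737; 95% interval −1.32 to 0.71). A fold of this size cannot be resolved at the depth and spread found here.

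Within the samples of at most 100 HINTW counts, 8 affected were set against NA61 and NA61B. There the log2 fold change was −0.86 for DACH1 (SE 0.53), −0.48 for EYA1 (SE 0.95), −0.44 for DACH2 (SE 0.86), −0.38 for SIX4 (SE 0.21), −0.21 for EYA3 (SE 0.19) and 0.35 for EYA4 (SE 0.31). Thus each of these 6 estimates kept the sign found over all samples, and none passed the edgeR test. NA61 and NA61B carry 1 bird number, so the non-affected side may rest on 1 bird, while the SE treats them as independent samples. DACH1 had 0.427, 1.47 and 2.69 CPM in the lowest, median and highest of those 8 affected samples, against 1.98 and 3.88 CPM in NA61 and NA61B. Above 100 counts the affected group held A76 alone, so that class compares 1 sample with 9.

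**Figure D2:**
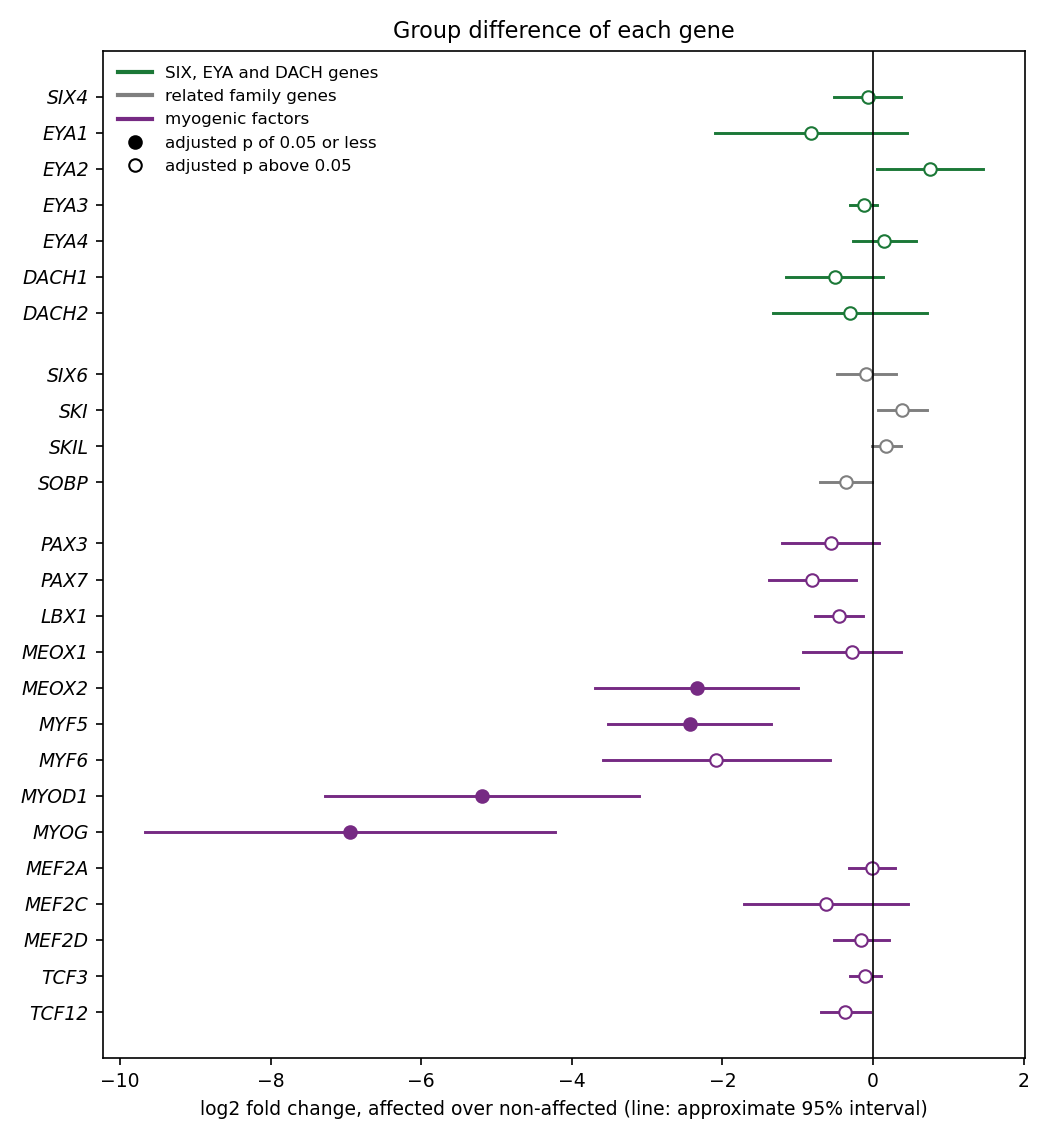
Log2 fold change of affected over non-affected MuSCs with its 95% interval for the 7 members, for related SIX-family and SKI-family genes, and for myogenic factors. Intervals of 6 members cross 0 and that of EYA2 runs from 0.06 to 1.46, whereas MYF5, MYOD1 and MYOG lie far to the left.

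Relatives of the members were measured beside them, and SKI, SKIL, SOBP and SIX6 did not pass the edgeR test. SKI, a corepressor that shares a domain with DACH proteins, had a log2 fold change of 0.39 (SE 0.17, edgeR adjusted p = 0.153). SIX6, the eye and pituitary paralog, had 1.42 ± 0.348 CPM in affected and 1.51 ± 0.444 CPM in non-affected MuSCs (SD, n = 9 and 11).

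Myogenic factors that lie beside or downstream of the network were in part lower in affected MuSCs, while the members did not pass the test. By edgeR, of 14 such factors, all tested, 4 were lower and none higher, all 14 estimates were negative, and their median log2 fold change was −0.59. Over all tested genes 2.91% were lower and 3.33% higher, with a median of −0.01. MYOD1, the determination factor of the myoblast, had 2.05 ± 3.03 CPM in affected and 75.7 ± 162 CPM in non-affected MuSCs (SD, n = 9 and 11), a log2 fold change of −5.19 (SE 1.06, edgeR adjusted p = 0.00913). MYOG, the factor of terminal differentiation, had 0.183, 0.234 and 0.522 CPM in the lowest, median and highest affected sample, against 0.0628, 4.56 and 340 CPM in the non-affected samples. It was above the highest affected sample in 10 of 11 non-affected samples, and its log2 fold change was −6.94 (SE 1.39, edgeR adjusted p = 0.00826). The affected values came from 3 to 10 counts of MYOG a sample, so the size of this fold rests on few counts. MYF5, which marks committed satellite cells, had 11.2 ± 10.8 CPM in affected and 60.6 ± 43.2 CPM in non-affected MuSCs (SD, n = 9 and 11), a log2 fold change of −2.43 (SE 0.55, edgeR adjusted p = 0.0143). MEOX2, a homeodomain factor of the limb muscle, had 1.16 ± 1.21 CPM in affected and 5.98 ± 7.32 CPM in non-affected MuSCs (SD, n = 9 and 11), a log2 fold change of −2.34 (SE 0.69, edgeR adjusted p = 0.0461). Whether these changes differ from those of the members was not tested.

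A few of these values depended on single libraries. NA70 held 559 CPM of MYOD1 and 340 CPM of MYOG, and without NA70 the log2 fold changes were −3.73 for MYOD1 and −4.36 for MYOG, both still past the threshold. MEOX2 was no longer called in 14 of 20 fits with 1 sample removed, nor with the samples of 1 bird number summed (edgeR adjusted p = 0.0859). With HINTW as an additive term none of the 14 factors passed, but over all 14524 tested genes only 0 higher and 1 lower passed there. In that fit the log2 fold change was −2.83 for MYF5, −3.70 for MYOD1, −2.91 for MYOG and −1.81 for MEOX2 (edgeR adjusted p = 0.266, 0.576, 0.895 and 0.781). PAX7, the satellite cell marker that acts in parallel with the network, had 77.1 ± 28.4 CPM in affected and 135 ± 55.8 CPM in non-affected MuSCs (SD, n = 9 and 11), and its log2 fold change of −0.81 did not pass (SE 0.30, edgeR adjusted p = 0.106). It did pass without NA64B, the sample lowest in PAX7, at −0.92 (edgeR adjusted p = 0.0158), and with limma-voom, at −0.93 (adjusted p = 0.0170).

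Genes described in the mouse as bound or activated by SIX-family proteins in muscle were lower in part. The list held 15 genes, 12 had a row and 9 were tested. Of these 9, 5 were lower and none higher, with a median log2 fold change of −2.43. Over all tested genes 2.91% were lower and 3.33% higher, with a median of −0.01. With HINTW as an additive term none of the 9 passed, beside 0 higher and 1 lower over all tested genes. The list shares MYOG, MYOD1, MYF5 and MYF6 with the list above, and the first 3 of these were lower. The other 2 that passed were troponins of the sarcomere: TNNI2 of fast fibers, with 0.905 ± 0.412 CPM in affected and 15.1 ± 31.6 CPM in non-affected MuSCs (SD, n = 9 and 11) and a log2 fold change of −4.05 (SE 0.80, edgeR adjusted p = 0.00823), and TNNC1 of slow fibers and heart, with −2.57 (SE 0.70, edgeR adjusted p = 0.0343). Without NA70 these were −2.63 for TNNI2 and −1.04 for TNNC1, and TNNC1 was no longer called in 7 of 20 fits with 1 sample removed, nor with the samples of 1 bird number summed (edgeR adjusted p = 0.0592). TNNT3, another troponin of the list, had 2.08 ± 0.713 CPM in affected and 1.80 ± 1.37 CPM in non-affected MuSCs (SD, n = 9 and 11). Its log2 fold change was 0.21 and did not pass (edgeR adjusted p = 0.744). CCND1, a cyclin of the G1 phase, and EZR, a linker of membrane and actin, had −0.17 and −0.31 and did not pass (edgeR adjusted p = 0.340 and 0.235).

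Corepressors and coactivators through which the members act were measured too. Of 10 such genes, all tested, 1 was higher by edgeR, beside 3.33% of all tested genes, and none lower, beside 2.91%. Their median log2 fold change was 0.23, beside −0.01 for all tested genes. The 1 was TLE4, a Groucho-family corepressor encoded on chromosome Z between 39092763 and 39191446, with 30.1 ± 6.37 CPM in affected and 20.7 ± 5.01 CPM in non-affected MuSCs (SD, n = 9 and 11) and a log2 fold change of 0.54 (SE 0.15, edgeR adjusted p = 0.0365). With HINTW as an additive term it was 0.12 (edgeR adjusted p = 0.998), and it was no longer called in 12 of 20 fits with 1 sample removed. HDAC3, which joins DACH1 to its repressor complex, had −0.24 (edgeR adjusted p = 0.0528). Of the substrate and partners of the EYA phosphatase in DNA repair, H2AFX, BAZ1B and APBB1 were tested and none passed by edgeR.

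**Figure D3:**
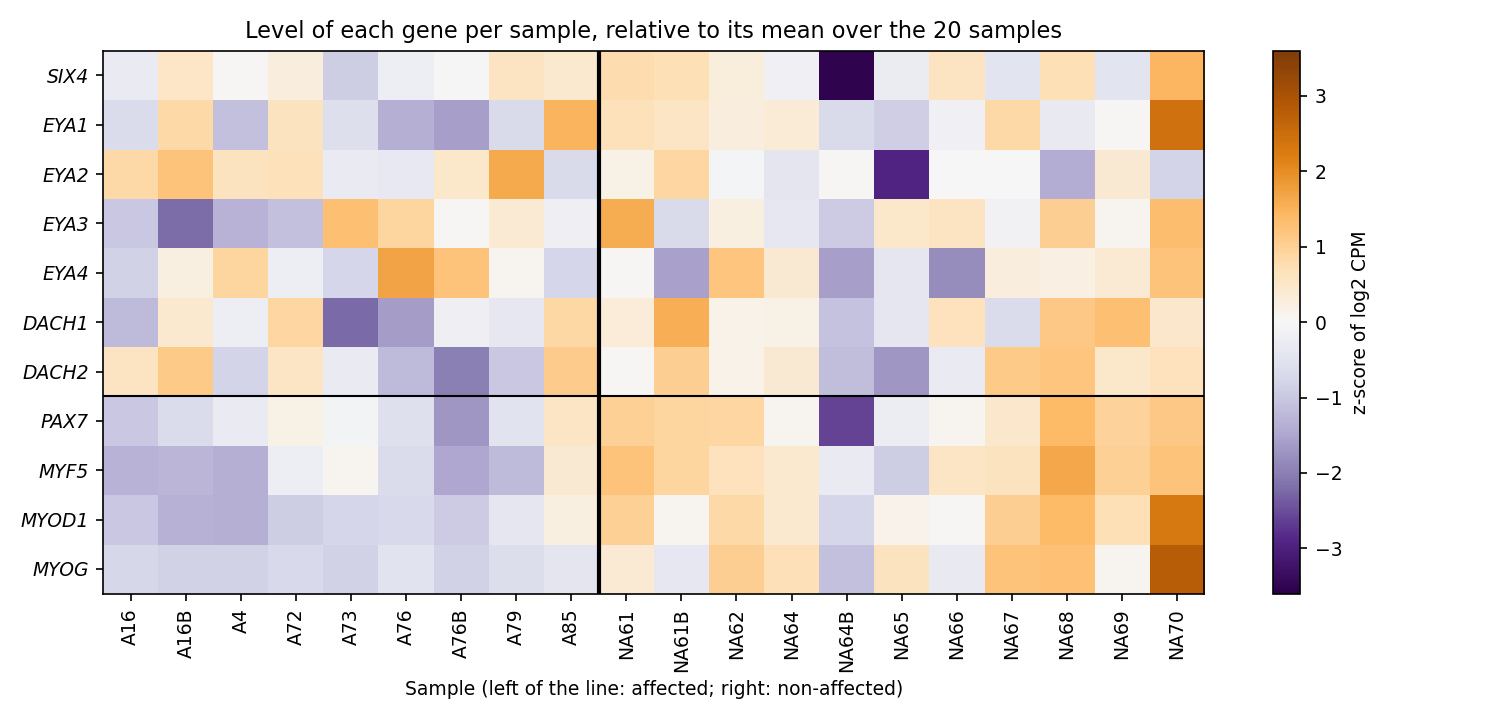
Level of the 7 members (top) and of PAX7, MYF5, MYOD1 and MYOG (bottom) in each sample, as the z-score of log2 CPM over the 20 samples, with affected samples left of the line. NA64B has the lowest z-score for SIX4 and PAX7 and NA70 the highest for EYA1, MYOD1 and MYOG, whereas the member rows show no block that follows the group.

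To see whether members varied together, the 21 pairs of members were correlated on log2 CPM over all 20 samples. EYA1 and DACH2 were the 1 pair past an adjusted p of 0.05 by Pearson correlation, with r = 0.75 (permutation p = 0.00013, adjusted over 21 pairs p = 0.00273) and Spearman rho = 0.78 (permutation p = 0.00015, adjusted p = 0.00315). In 9 affected samples r was 0.89 (exact permutation p = 0.000843, adjusted p = 0.0177), and in 11 non-affected samples it was 0.56 (permutation adjusted p = 0.358). A85 and A16B were high and A76B and A76 low in both genes. A76 and A76B share a bird number, as do A16 and A16B, and exact permutation within the affected group treats all 9 samples as independent. Without NA70 and A76B, the samples farthest from the EYA1 median, r was 0.77 (permutation p = 0.0002), and without the suffix B samples it was 0.67 (permutation adjusted p = 0.102). The shared source is one library per sample, and DACH2 reached only 3 counts in A76B.

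Over all 20 samples the remaining pairs were weaker by Pearson correlation. SIX4 and DACH1 had r = 0.54 (permutation p = 0.0128, adjusted p = 0.109) and rho = 0.63 (permutation p = 0.00352, adjusted p = 0.0370) over 20 samples, with r = 0.85 in the 9 affected samples (exact permutation adjusted p = 0.0338) and 0.65 in the 11 non-affected samples (permutation adjusted p = 0.204). Without NA64B and NA70, the samples farthest from the SIX4 median, r was 0.67 (permutation adjusted p = 0.0156). Without the suffix B samples it was 0.58 (permutation adjusted p = 0.193). EYA2 ran against EYA3, with r = −0.48 (permutation p = 0.0311, adjusted p = 0.130) and rho = −0.56 (permutation adjusted p = 0.0729). Without NA65 and A79 r for this pair was −0.69 (permutation adjusted p = 0.0156), and without the suffix B samples it was −0.38 (permutation adjusted p = 0.528). Within the affected samples it was −0.51 (exact permutation adjusted p = 0.359) and within the non-affected samples −0.34 (permutation adjusted p = 0.501). Over all 21 pairs r lay between −0.48 and 0.75 with a median of 0.06.

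**Figure D4:**
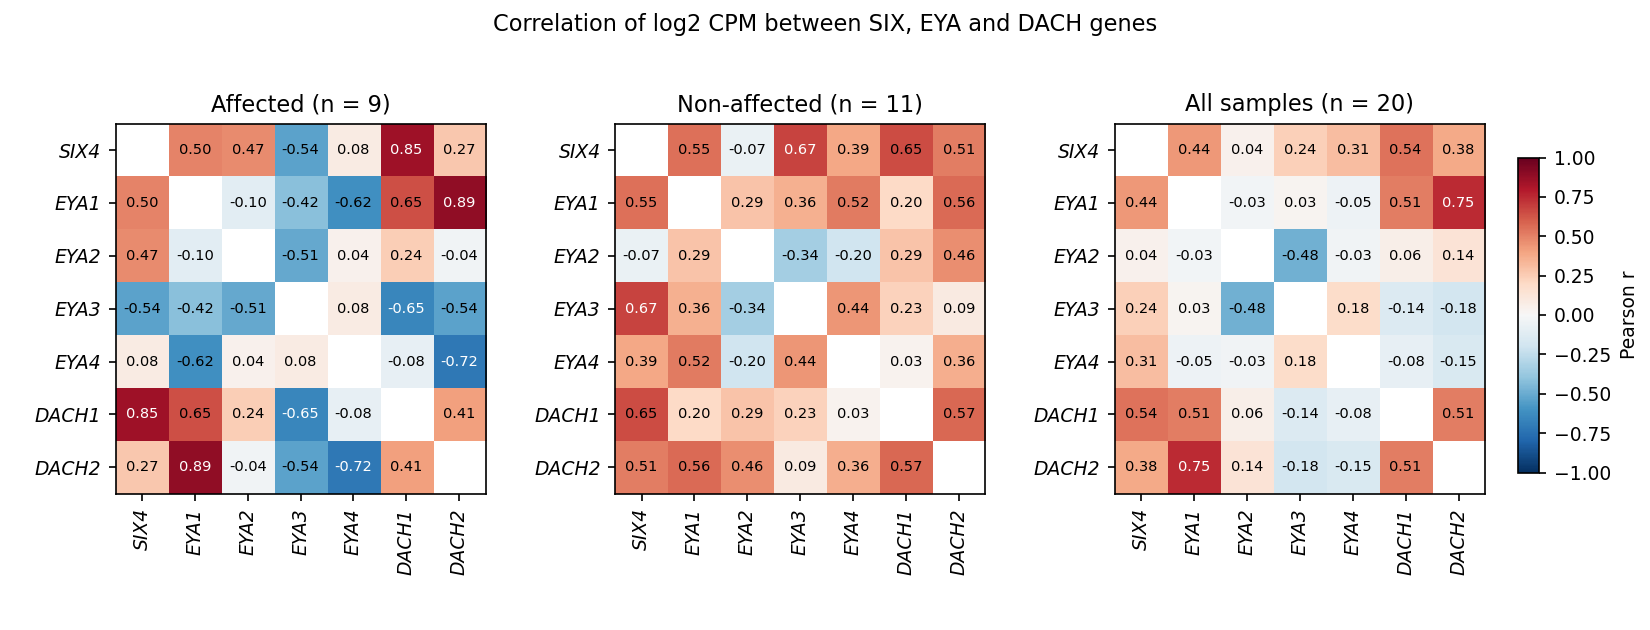
Pearson r of log2 CPM for each pair of the 7 members, in the affected samples (left, n = 9), the non-affected samples (middle, n = 11) and all samples (right, n = 20), with red for positive and blue for negative r. EYA1 with DACH2 is at 0.89, 0.56 and 0.75 in the 3 panels, the highest in the left and right ones. SIX4 with DACH1 is at 0.85, 0.65 and 0.54. In the middle panel SIX4 with EYA3 is highest at 0.67, and that pair is at −0.54 in the left panel.

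Each member was also set against MYOD1, MYOG and PAX7, a further 21 relations adjusted together. PAX7 correlated with SIX4 at r = 0.69 (rho = 0.52; permutation p = 0.00193, adjusted p = 0.0218), with DACH2 at 0.63 (rho = 0.56; permutation p = 0.00259, adjusted p = 0.0218), with EYA1 at 0.60 (rho = 0.64; permutation p = 0.00585, adjusted p = 0.0246) and with DACH1 at 0.58 (rho = 0.66; permutation p = 0.00704, adjusted p = 0.0246). MYOD1 correlated with EYA1 at 0.61 (rho = 0.52; permutation p = 0.00406, adjusted p = 0.0218) and with EYA3 at 0.61 (rho = 0.62; permutation p = 0.00416, adjusted p = 0.0218), and MYOG with EYA1 at 0.57 (rho = 0.49; permutation p = 0.00977, adjusted p = 0.0293). Thus 7 of the 21 passed by Pearson correlation and 6 by Spearman, under which SIX4 with PAX7, EYA1 with MYOD1 and EYA1 with MYOG did not pass (permutation adjusted p = 0.0549, 0.0549 and 0.0684). Samples of 1 bird number may not be independent, and without the suffix B samples only 3 passed by Pearson correlation. They were EYA1 with MYOD1, EYA1 with PAX7 and DACH1 with PAX7 (permutation adjusted p = 0.0376, 0.0446 and 0.0376). For SIX4 with PAX7, r was then 0.49 (permutation adjusted p = 0.121). In the affected samples, where MYOG had 3 to 10 counts, none of the 21 passed by exact permutation, whereas 6 passed in non-affected samples. These were SIX4 and DACH1 with PAX7, EYA1 and EYA3 with MYOD1, and EYA4 with MYOD1 and with MYOG. DACH2 with PAX7, EYA1 with PAX7 and EYA1 with MYOG did not pass there (permutation adjusted p = 0.0587, 0.164 and 0.0587). Without NA70 none passed, but r with PAX7 was 0.67 for SIX4, 0.62 for DACH2, 0.58 for DACH1 and 0.56 for EYA1, and r was 0.56 for EYA3 with MYOD1 (permutation adjusted p between 0.0506 and 0.0549), while it was 0.44 for EYA1 with MYOD1 and 0.31 for EYA1 with MYOG.

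The relation of SIX4 to PAX7 did not hold without its extreme samples. Without NA64B and NA70 r was 0.32 (permutation adjusted p = 0.291), and within the affected samples it was 0.15. Within the non-affected samples, which hold both NA64B and NA70, r was 0.90 (rho = 0.68, permutation adjusted p = 0.0245 for r). For DACH1 and PAX7, r without the 2 samples farthest from the DACH1 median, A73 and A76, was 0.70 (permutation adjusted p = 0.0195), the 1 of the 21 that passed in that way. Treated alike, r was 0.58 for DACH2 with PAX7, 0.52 for EYA3 with MYOD1, and 0.47, 0.38 and 0.25 for EYA1 with PAX7, MYOD1 and MYOG. EYA4 with MYOG had r = 0.83 in the non-affected samples (permutation p = 0.00107, adjusted p = 0.0225) and 0.02 in the affected samples, and whether these differ was not tested. MYOG had 3 to 10 counts in the affected samples, so a relation with it could hardly be measured there. EYA2 had r = −0.51 with MYOG (permutation p = 0.0254, adjusted p = 0.0593) and rho = −0.55 (permutation adjusted p = 0.0427). With MYOD1 it had r = −0.45 (permutation p = 0.0444, adjusted p = 0.0932) and rho = −0.61 (permutation adjusted p = 0.0275). Both thus passed by Spearman and neither by Pearson over all 20 samples, where the values also take in the difference between the groups. Within the affected samples r was −0.42 (rho = −0.13) with MYOG and −0.48 (rho = −0.40) with MYOD1, with exact permutation adjusted p = 0.733 for each r. Within the non-affected samples r was −0.37 (rho = −0.72) and −0.13 (rho = −0.39), with permutation adjusted p = 0.316 and 0.744 for r.

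The genes whose log2 CPM followed each member most closely, among genes with a mean of at least 1 CPM, were taken as a description over the 20 samples. SIX4 was closest to TNRC6A, SETD2 and PLXNA1, at r = 0.95, 0.94 and 0.94, and without NA64B these were 0.81, 0.81 and 0.79. EYA1 was closest to CNR1, CPE and KCNN1, at r = 0.84, 0.84 and 0.83. DACH2 was closest to CPE, LMO4 and JDP2, at r = 0.85, 0.84 and 0.83, so that CPE, a carboxypeptidase that processes peptide hormones, was near the top for both members of the correlated pair.

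EYA2 was closest to CHST15, CARD10 and CNKSR2, at r = 0.88, 0.84 and 0.82. EYA3 was closest to XPO1, the main nuclear exporter of proteins, and to R3HDM1 and USP10, at r = 0.92, 0.92 and 0.91. EYA4 had the loosest neighbors, HACD1, GALNT1 and C1QB, at r = 0.74, 0.73 and 0.71. DACH1 was closest to APBA1, to the collagenase MMP13 and to BACH2, at r = 0.86, 0.85 and 0.82.

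The members differed widely in their spread within the groups. EYA1 had a coefficient of variation of 118% in affected and 144% in non-affected MuSCs, DACH2 had 85.8% and 63.3%, and EYA2 had 51.2% and 51.4%, all above the medians of 25.1% and 28.9% over all tested genes. Counting error accounts for 10.9%, 15.7% and 9.38% in these 3 genes at the mean count. EYA3, at 15.7% and 11.3%, was below both medians. SIX4 had 18.1% in affected and 37.2% in non-affected MuSCs, with NA64B and NA70 as the extremes of the wider group. Whether the spread differs between the groups was not tested.

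Samples of 1 bird number were about as alike as other samples of their group. Over all tested genes the 4 such pairs had r between 0.938 and 0.975 with a median of 0.959, and the 87 other pairs within a group between 0.876 and 0.976 with a median of 0.953. The lowest of the 4 was NA64 with NA64B. With the other non-affected samples NA64B had r of 0.876 to 0.938 and NA70 had r of 0.876 to 0.958, so neither stands apart in single genes only. Among the members, A76 and A76B shared low EYA1 and DACH2 and high EYA4, whereas A16 and A16B had 1.23 and 5.60 CPM of EYA1, and NA64 and NA64B had 14.1 and 3.58 CPM of SIX4.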

How the data were processed

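RNA of proliferating MuSCs was sequenced as poly-A libraries. Per the labels and the study's methods, the authors trimmed reads with Trim Galore 0.6.7, aligned them to GRCg7b with STAR 2.7.9a and quantified genes with Salmon 1.10.1. They deposited estimated counts, neither normalized between samples nor filtered, and 71.2% of the values were whole. No annotation release is given in the sources used here. Here the estimated counts were rounded, and all 20 samples were grouped by their label, with samples of 1 bird number entered separately. edgeR 4.0.16 in R 4.3.3 was used with TMM, filterByExpr and no covariate, and the threshold for a call was an adjusted p of 0.05. The SE was approximated from the F statistic and intervals as 1.96 SE. Salmon shares reads between similar sequences, so paralogs of the families may be split imperfectly. Depth was 15425103 to 28113814 counts a sample, and counting errors cover sampling of reads only. Strand use was not stated.

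Correlations used log2 CPM with a prior count of 2, and 100000 resamples, or every permutation for 9 samples. The smallest p that the resamples can give is 1e-05. Positions come from the RefSeq table of GRCg7b, matched by symbol. Members and lists were chosen with earlier results of these data known, and the lists were written by hand. Named genes are all members, every list gene past the threshold, at most 5 others of each list by role, the 3 nearest genes of each member that have a symbol and no LOC number, and HINTW. Alternatives were DESeq2 1.42.0, limma-voom (limma 3.58.1), other scaling and filters, bird numbers summed or left out, each sample left out in turn, and 3 settings with HINTW at a limit of 100 counts. The edgeR step was tested on simulated data. The tissue, RT-qPCR and proteomics data of the study were not used here. Figures were drawn with matplotlib 3.10.9. The result of 1 related gene is not reported here.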

Additional observations from a re-analysis of the deposited data

Results flagged for a closer look

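EYA1 had 10.8 CPM in the affected sample A85, which Dixon's rule marked on untransformed CPM. The next highest was A16B with 5.60 CPM, and the gap took 0.4995 of the range of the group, against the 95% critical value of 0.493 for 9 samples. That value assumes a normal distribution, under which chance alone marks about 1 in 20 groups. Both ends of the affected group were examined for 7 members. On the log2 scale A85 had 3.44, A16B 2.51 and the lowest sample, A76B, −0.90. The rule was not applied on that scale, so the mark holds for CPM only. In DACH2, A85 had 4.12 CPM and A16B had 4.22 CPM. The non-affected group has 11 samples and was not examined in this way.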

How the results depend on the processing

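The 217 member values of 31 alternatives, of which 20 each left out 1 sample, kept their side of the threshold: no member passed in any of them. Among these uncalled estimates the sign changed in 2 alternatives for SIX4 and in 1 each for EYA2, EYA3 and EYA4. Each member had 1 row, so summing rows of a symbol could not be tried. No paired analysis was possible because the 2 groups share no bird numbers.

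Counts over all tested genes moved more, and the cause was not tested. Higher and lower genes numbered 484 and 422, against 929 and 778 with DESeq2, 1100 and 1139 with limma-voom, 306 higher with the suffix B samples left out, and 180 and 169 without A79 and A76B. With HINTW as an additive term there were 0 and 1, with 9 and 27 among samples of at most 100 HINTW counts and 0 and 2 above that limit; the last 2 settings compare 8 samples with 2 and 1 sample with 9. Leaving out 1 sample gave 268 to 867 higher and 243 to 926 lower genes, the extremes being without A4 and without A73.

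Of the myogenic factors, 4 were lower, against 7 with limma-voom, 2 without A79 and A76B and 0 in each HINTW setting. Of the SIX-bound genes, 5 were lower, against 3 without A79 and A76B and 0, 1 and 0 in the HINTW settings. Co-regulators had 0 lower, against 1 with DESeq2 and limma-voom and 0 to 1 when 1 sample was left out; they had 1 higher, against 2 with DESeq2 and limma-voom, 0 without A79 and A76B, without suffix B samples and in each HINTW setting, and 0 to 2 when 1 sample was left out. With bird numbers summed, 3 myogenic factors and 4 SIX-bound genes were lower. Member pairs past the threshold numbered 1, against 2 within affected samples, 0 within non-affected samples, 0 without suffix B samples and 3 without the farthest pair of samples; without NA70, chosen after its values were seen, there was 1.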
